A study of Mus musculus with 13 samples.

Results

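Of the genes of Polycomb repressive complex 1 (PRC1), 9 were chosen by name and described in cultured mouse oligodendrocyte-lineage cells, namely Ring1, Rnf2, Bmi1, Pcgf2, Cbx2, Cbx7, Cbx8, Phc1 and Phc2. All 9 genes were among the 13549 genes of the count table, and all 9 passed the filter on low counts. RNA was sequenced from C57BL/6 brain cultures of oligodendrocyte precursor cells (OPCs), grown with PDGF and NT-3, and of immature oligodendrocytes (iOLs), taken on day 2 after T3 was added and PDGF removed. Each stage was represented by control cells and by cells of an Eed conditional knockout (cKO), with 2 control OPC, 3 Eed cKO OPC, 2 control iOL and 2 Eed cKO iOL libraries. OPC Eed cKO replicates 1 and 2 and OPC control replicate 1 came from brains of postnatal day 7, and the other 6 libraries from postnatal day 6. The Cre driver and the deleted part of Eed are not given in the sources used here, nor is it stated whether each replicate had its own animals or culture, and the p-values speak only of the spread among these samples, which may be technical. The genotype entry of the labels reads the same for controls and knockouts, and groups were therefore taken from the sample titles.

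Polycomb repression uses a pair of complexes. PRC2, of which Eed is a core subunit, trimethylates histone H3 at lysine 27, and canonical PRC1 binds that mark through a CBX chromodomain protein. PRC1 in turn ubiquitinates histone H2A through its RING1 and RNF2 (RING1B) ligases, and its PHC subunits link PRC1 particles. In glia as elsewhere, the complexes are known for keeping genes of other lineages and cell-cycle inhibitor genes silent.

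The sequence before the transcription start is shown for Bmi1, Cbx7 and Cbx8. These genes moved with the knockout or with differentiation, and the promoter table holds an entry for them. Ring1, Pcgf2 and Phc1 met the same conditions and are not shown, and their CG counts are given below. Each line is the 250 bases before an annotated start, 5′ to 3′ on the gene's strand, from RefSeq on GRCm38.p6 (the assembly also called mm10), with every CG dinucleotide in capitals.
Bmi1 (chr2:18676768-18677017, plus strand): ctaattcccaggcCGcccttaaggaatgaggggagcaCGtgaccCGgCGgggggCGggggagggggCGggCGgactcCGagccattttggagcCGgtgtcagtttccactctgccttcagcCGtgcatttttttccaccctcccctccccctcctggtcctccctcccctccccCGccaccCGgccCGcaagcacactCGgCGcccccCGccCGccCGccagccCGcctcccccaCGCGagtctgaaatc
Cbx7 (chr15:79932647-79932896, minus strand): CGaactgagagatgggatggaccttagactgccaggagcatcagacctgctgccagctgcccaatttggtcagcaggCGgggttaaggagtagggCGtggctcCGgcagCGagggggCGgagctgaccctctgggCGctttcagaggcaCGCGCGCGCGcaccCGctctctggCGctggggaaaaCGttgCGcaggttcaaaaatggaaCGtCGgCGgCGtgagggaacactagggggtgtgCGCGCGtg
Cbx8 (chr11:119040914-119041163, minus strand): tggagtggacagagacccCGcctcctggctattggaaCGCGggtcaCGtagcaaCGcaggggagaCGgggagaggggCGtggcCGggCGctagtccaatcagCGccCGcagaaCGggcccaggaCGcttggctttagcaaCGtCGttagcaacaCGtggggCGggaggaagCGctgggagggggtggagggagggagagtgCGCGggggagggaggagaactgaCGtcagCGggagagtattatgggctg
These 3 windows hold 21 (Bmi1), 23 (Cbx7) and 22 (Cbx8) CG dinucleotides. The median over the 32841 promoter windows of the same length was 6, and 83.7% (Bmi1), 86.7% (Cbx7) and 85.2% (Cbx8) of all windows held fewer. The entries of Cbx7, Pcgf2 and Phc2 start inside the annotated spans of their genes. Of the 9 members 8 had an entry, with 10 windows in all, and Cbx2 had none. Ring1 (30), Rnf2 (20), and a start of Phc2 (34) also held many CG dinucleotides, and Pcgf2 (5), Phc1 (8) and the other Phc2 starts (13 and 1) fewer. The GC box GGGCGG, searched on both strands, was found in each member window except those of Phc1 and of 1 Phc2 start, 6 times before Bmi1, and in 32.8% of all promoter windows. The E-box CACGTG was found before Bmi1, Pcgf2, Cbx8 and 1 start of Phc2, and in 6.02% of all windows, and the CCAAT box, on both strands, before Cbx7, Cbx8 and 2 starts of Phc2, and in 33.9%. The E2F sequences TTTGGCGC and TTTCCCGC, on both strands, matched no member window and 1.30% of all windows. Such matches describe the letters alone.

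Total counts ran from 17417529 to 19680398 over the 9 libraries. Levels are given as CPM (counts scaled to a common library size with TMM factors), and are compared for a gene between groups and not between genes, since the table holds no transcript lengths. OPC control replicate 1 stood apart from OPC control replicate 2, with a chi-square per degree of freedom of 106 between them. OPC Eed cKO replicate 3, of day 6, likewise stood apart from replicates 1 and 2, of day 7, at 47.3 and 47.4, against 7.67 between replicates 1 and 2. The iOL pairs, all of day 6, were at 6.48 in controls and 13.3 in the cKO. Eed itself was at 21.7 and 16.8 CPM in control OPCs, and at 13.3, 11.8 and 12.5 CPM in Eed cKO OPCs. In iOLs it was at 18.003 and 21.2 CPM in controls and at 14.6 and 12.1 CPM in the cKO. Its log2 fold change of −0.62 ± 0.17 (standard error, SE) in OPCs and −0.55 ± 0.18 in iOLs did not pass the test (edgeR adjusted p = 0.0847 and 0.0973, over the other settings 0.0121 to 0.278 and 0.0393 to 0.459), and counts over the whole gene do not measure the deleted exons. Summed markers of dividing cells, 8 of 8 measured, lay between 901 and 1179 CPM in OPCs, between 379 and 433 CPM in control iOLs and between 539 and 619 CPM in Eed cKO iOLs. Summed oligodendrocyte markers, 7 of 8 measured, were at 5205 to 5268 CPM in control iOLs and 1366 to 1977 CPM in Eed cKO iOLs, and at 6468 and 2132 CPM in the control OPC libraries against 998 to 2741 CPM in Eed cKO OPCs. Summed astrocyte markers, 7 of 7 measured, were at 6262 to 6480 CPM in control iOLs, 9430 to 11341 CPM in Eed cKO iOLs, 3273 and 9338 CPM in control OPCs and 2944 to 7611 CPM in Eed cKO OPCs. Summed OPC markers, 6 of 6 measured, were at 11242 to 16019 CPM in OPCs, 6419 to 6977 CPM in control iOLs and 3945 to 4030 CPM in Eed cKO iOLs. Neuron markers, 7 of 7 measured, summed to 169 to 310 CPM in OPCs, 190 and 202 CPM in control iOLs and 298 and 334 CPM in Eed cKO iOLs. Of the endothelial list 2 of 6 were measured, Flt1 and Kdr, while Pecam1, Cldn5, Cdh5 and Tek were not in the count table. The sum of Flt1 and Kdr was above the controls of its stage in every cKO library. It was at 1.87 to 2.79 CPM in control and 9.70 to 10.501 CPM in Eed cKO OPCs. In iOLs it was at 35.3 to 40.4 CPM in controls and 87.5 to 103 CPM in the cKO. The sum of these 2 genes alone does not measure endothelial cells. Of the pericyte and fibroblast list 5 of 6 were measured, with sums of 24.5 to 86.8 CPM. Of the microglia list 1 of 7 was measured, with at most 2.48 CPM. The single measured red blood cell gene was at 562 to 2877 CPM in OPCs and at most 1.17 CPM in iOLs. In bulk samples fewer cells of a type and less RNA per cell cannot be told apart, and the part of these differences in the results below was not tested.

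**Figure D1:**
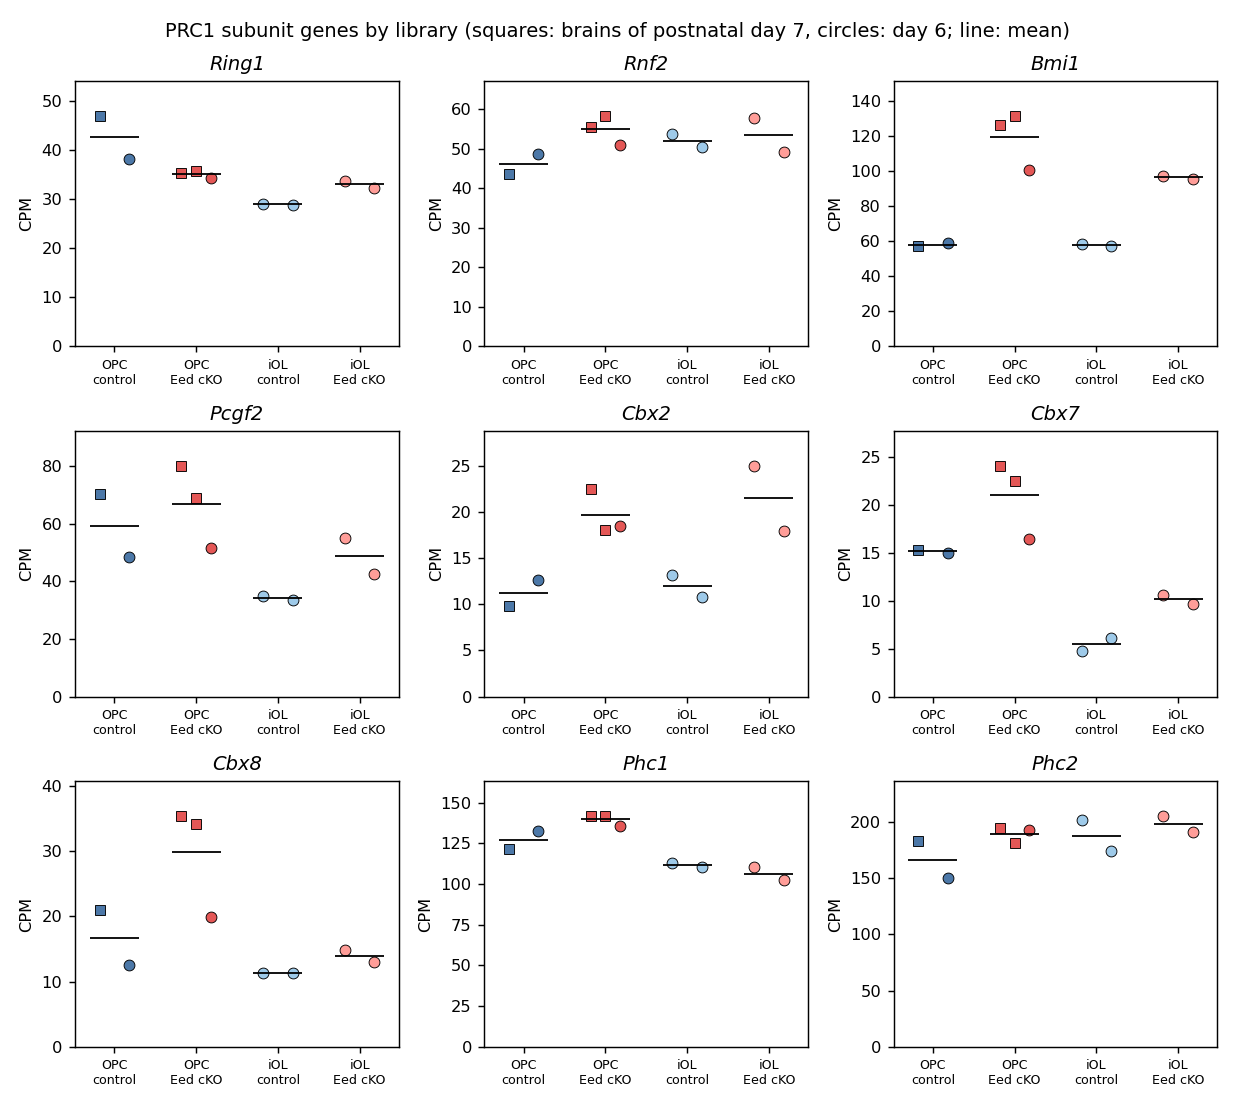
Level of each PRC1 subunit gene (y axis, TMM-scaled CPM from 0) in the 9 libraries by group (x axis), with squares for brains of postnatal day 7, circles for day 6 and a line at the group mean. All Eed cKO libraries lie above all control libraries of their stage for Bmi1, Cbx2 and Cbx7, and Cbx7 lies lower in iOLs than in OPCs within each genotype.

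The Eed cKO was compared with control cells to find how the partner complex is expressed after knockout of the gene of a PRC2 core subunit. In OPCs 1 of the 9 genes rose, none fell and 8 did not pass the test, against 2.94% of all genes called higher and 0.303% called lower, 3.25% in all (edgeR quasi-likelihood test, adjusted p under 0.05 over all 13549 genes). In iOLs 3 rose, none fell and 6 did not pass, against 7.08% of all genes called higher and 3.51% lower, 10.6% in all. The gene that rose at both stages was Bmi1, and Cbx2 and Cbx7 rose in iOLs. The median log2 fold change of the 9 genes was 0.25 in OPCs and 0.31 in iOLs, beside −0.02 and −0.00 over all genes. Both comparisons have their own libraries but share an estimate of spread. In each, 8 of the 9 estimates were positive, beside 47.3% of all genes in OPCs and 49.5% in iOLs. Ring1 was the negative one in OPCs and Phc1 in iOLs. With a library left out, the sign turned for Pcgf2 in OPCs and for Rnf2 and Phc2 in iOLs.

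Bmi1 encodes a PCGF subunit that pairs with the RING ligase and is a known repressor of Cdkn2a. Control OPCs held it at 57.1 and 58.7 CPM and Eed cKO OPCs at 126, 132 and 100.4 CPM. Control iOLs held it at 58.4 and 57.4 CPM and Eed cKO iOLs at 97.0 and 95.7 CPM. No cKO library overlapped the controls of its stage. The fold was 2.06 in OPCs (log2 1.04 ± 0.13 SE, 95% interval 0.75 to 1.33, edgeR adjusted p = 0.00258) and 1.66 in iOLs (0.73 ± 0.14, 0.42 to 1.04, adjusted p = 0.0107). The difference in OPCs was 1.17 on the log2 scale within postnatal day 7 and 0.77 within day 6. Its call in OPCs held without each library in turn and under each other setting tried, with adjusted p at most 0.0268. The call in iOLs ended when any of the 4 iOL libraries was left out (adjusted p 0.0645 to 0.0905), with the log2 fold change between 0.72 and 0.75. Bmi1 lies on chromosome 2 (18677018 to 18686629, mm10), and its nearest tested neighbour Commd3, which ends 786 bases before it, had a log2 fold change of 0.03 ± 0.15 in OPCs and 0.01 ± 0.17 in iOLs. Cdkn2a had 9 and 2 counts in control OPCs against 405, 380 and 373 in Eed cKO OPCs, and 1 and 1 in control iOLs against 228 and 260 in Eed cKO iOLs. All 5 cKO libraries thus held more of both genes than any control library.

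Pcgf2 (Mel18), the paralog of Bmi1 in the same position of the complex, did not pass in either stage. It was at 70.3 and 48.4 CPM in control OPCs and 80.1, 69.1 and 51.6 CPM in Eed cKO OPCs, which overlap. Among iOLs it stood at 34.8 and 33.5 CPM in controls and 54.9 and 42.7 CPM in the cKO, which do not. The log2 fold change was 0.17 (95% interval −0.31 to 0.66, edgeR adjusted p = 0.623) in OPCs and 0.52 (−0.02 to 1.05, adjusted p = 0.233) in iOLs. The iOL value passed with only the groups compared (adjusted p = 0.0262) and with postnatal day as a term (0.0259). All iOL libraries were of day 6, so the day term did not adjust this comparison, and the log2 value stayed at 0.52.

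The CBX genes encode the chromodomain subunits through which canonical PRC1 reads the mark laid down by PRC2. Cbx2 was at 9.78 and 12.6 CPM in control OPCs and 22.5, 18.1 and 18.5 CPM in Eed cKO OPCs. The iOL values were 13.2 and 10.8 CPM in controls and 25.0 and 17.98 CPM in the cKO. The cKO libraries were above the controls at both stages. Its fold was 1.76 in OPCs (log2 0.81 ± 0.20, edgeR adjusted p = 0.0698) and 1.79 in iOLs (0.84 ± 0.22, adjusted p = 0.0397). In OPCs the difference was 1.03 within day 7 and 0.55 within day 6, and it passed with postnatal day as a term (adjusted p = 0.0329), with DESeq2 (0.0097), without OPC control replicate 2 (0.0201) and without OPC Eed cKO replicate 3 (0.0404).

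Cbx7 was at 15.3 and 15.002 CPM in control OPCs and 24.1, 22.5 and 16.5 CPM in Eed cKO OPCs. Its iOL levels were 4.77 and 6.11 CPM in controls and 10.6 and 9.68 CPM in the cKO. Here too the cKO libraries lay above the controls of their stage, though the day 6 OPC library lay close to them. The fold was 1.39 in OPCs (log2 0.47 ± 0.19, adjusted p = 0.170, edgeR) and 1.87 in iOLs (0.90 ± 0.22, adjusted p = 0.0323). The OPC difference was 0.60 within day 7 and 0.13 within day 6, and passed without OPC Eed cKO replicate 3 (adjusted p = 0.0341). The annotated span of Cbx7 on chromosome 15 (79915804 to 79971143) overlaps that of Apobec3 by 2415 bases. Apobec3 was itself higher in Eed cKO iOLs (log2 1.23, edgeR adjusted p = 0.0015). It was also higher in control iOLs than in control OPCs (1.04, adjusted p = 0.000621), where Cbx7 was lower. Without strand information a read from the shared stretch could belong to either gene, and the values of Cbx7 are uncertain to that extent. Cbx2 overlaps Gm35829 by 821 bases and Phc2 overlaps Gm33712 by 8960 bases. Neither of these long noncoding RNA genes is in the count table, and the values of Cbx2 and Phc2 carry the same uncertainty.

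The iOL calls of Cbx2 and Cbx7 depended on single libraries. Without 1 of the 4 iOL libraries the adjusted p of Cbx2 ran from 0.0539 to 0.304, with log2 fold changes of 0.58 (without iOL Eed cKO replicate 1) to 1.06 (without iOL Eed cKO replicate 2). That of Cbx7 ran from 0.0828 to 0.25, with log2 fold changes of 0.73 (without iOL control replicate 1) to 1.09 (without iOL control replicate 2). Without OPC Eed cKO replicate 1 or 2, which enter the shared estimate of spread, Cbx2 was at adjusted p = 0.0568 and 0.0622, and without OPC Eed cKO replicate 2 Cbx7 was at 0.0532.

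Cbx8 was at 21.0 and 12.5 CPM in control OPCs and 35.4, 34.3 and 19.9 CPM in Eed cKO OPCs, with the day 6 cKO library below the day 7 control. Both control iOL libraries had 11.3 CPM, and the cKO iOL libraries had 14.9 and 13.1 CPM. The log2 fold change was 0.84 ± 0.28 in OPCs (edgeR adjusted p = 0.129) and 0.31 ± 0.31 in iOLs (adjusted p = 0.657). Within postnatal day it was 0.73 on day 7 and 0.67 on day 6, and with postnatal day as a term it was 0.71 (adjusted p = 0.00625). It also passed in OPCs with DESeq2 (0.0445) and without OPC Eed cKO replicate 3 (0.0233).

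Cbx2 and Cbx8 lie side by side on chromosome 11, with Cbx2 at 119023019 to 119031275 and Cbx8 at 119036303 to 119040913. The gap between them is 5027 bases, with no other tested gene in it. Neither passed in OPCs in the fit of all libraries, and both estimates there were positive.

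The ligase genes Ring1 and Rnf2 and the Polyhomeotic genes Phc1 and Phc2 did not pass in either stage. Ring1 was at 47.0 and 38.3 CPM in control OPCs and 35.4, 35.8 and 34.3 CPM in Eed cKO OPCs, and at 29.1 and 28.9 CPM in control iOLs, compared with 33.8 and 32.3 CPM in the cKO. It was thus below the controls in each cKO OPC library and above them in each cKO iOL library, with log2 fold changes of −0.28 (95% interval −0.55 to −0.01, edgeR adjusted p = 0.187) and 0.19 (−0.12 to 0.49, 0.488). Without OPC control replicate 2 the OPC value was −0.42 and passed (adjusted p = 0.0227). Rnf2, the ligase known to be essential in the mouse embryo, was at 43.6 and 48.6 CPM in control OPCs and 55.5, 58.3 and 50.9 CPM in the cKO. The iOL values were 53.6 and 50.3 CPM in controls, beside 57.7 and 49.1 CPM in the cKO. Its log2 fold change had an interval of −0.02 to 0.53 in OPCs and −0.26 to 0.34 in iOLs.

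PHC proteins link PRC1 particles through their SAM domain. Phc1 was at 121 and 133 CPM in control OPCs and 142, 142 and 136 CPM in the cKO, and at 113 and 111 CPM in control iOLs, compared with 110 and 102 CPM in cKO iOLs. The groups did not overlap at either stage but lay close, with intervals of −0.08 to 0.35 in OPCs and −0.31 to 0.16 in iOLs. Phc2 was at 183 and 150 CPM in control OPCs and 195, 182 and 193 CPM in the cKO, and at 202 and 174 CPM in control iOLs, compared with 206 and 191 CPM in cKO iOLs. These groups overlapped, with intervals of −0.09 to 0.46 and −0.22 to 0.38. Counting genes by overlap, 5 of the 9 lay wholly above the controls in OPCs and 1 wholly below, against 16.9% and 17.4% of all genes, and in iOLs 6 and 1, against 33.6% and 34.3%.

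The difference between the cKO effect in iOLs and that in OPCs was tested for each gene. None of the 9 passed (edgeR), against 0.945% of all genes called higher and 0.886% lower, 1.83% in all, and 0 were called by DESeq2. An unadjusted p under 0.05 (edgeR) was found for 1 of the 9, beside 2475 of all 13549 genes. The gene with the unadjusted p under 0.05 was Ring1 (log2 difference 0.47 ± 0.18, adjusted p = 0.217), which passed without OPC control replicate 2 (0.61, adjusted p = 0.0294). For Bmi1 the difference was −0.31 with a 95% interval of −0.73 to 0.11, for Cbx7 0.43 (−0.23 to 1.08), for Cbx8 −0.53 (−1.47 to 0.41) and for Cbx2 0.03 (−0.64 to 0.69).

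**Figure D2:**
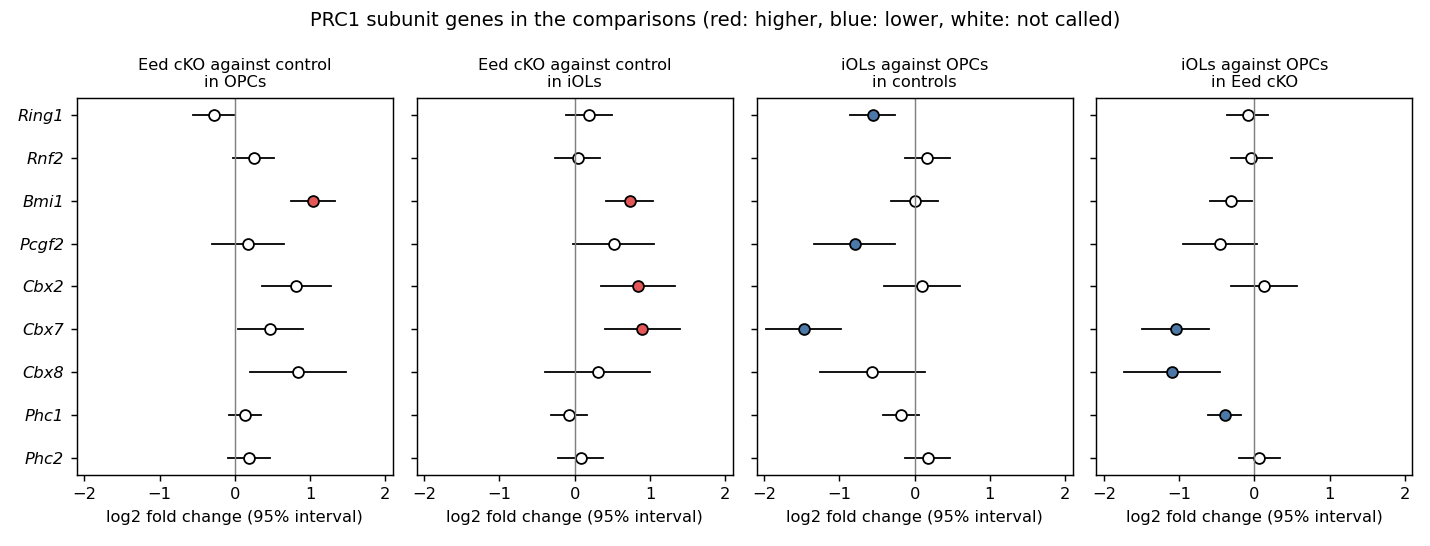
Log2 fold change (x axis) with its 95% interval (bar) for each PRC1 subunit gene (y axis) in 4 comparisons, with red for genes called higher, blue for genes called lower and white for genes that did not pass. Bmi1 was called in both knockout comparisons, at 1.04 and 0.73, and Cbx7 in both differentiation comparisons, at −1.48 and −1.05.

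Day 2 iOLs were compared with OPCs, separately in control and in Eed cKO cultures, to follow the complex over differentiation. In controls Ring1, Pcgf2 and Cbx7 fell, none rose and 6 did not pass, against 25.3% of all genes called lower and 21.0% higher, 46.3% in all. In Eed cKO cultures Cbx7, Cbx8 and Phc1 fell, none rose and 6 did not pass, against 21.8% called lower and 18.5% higher, 40.3% in all. With shares of called genes this large, 3 of 9 is near the background. Counted by overlap, 5 of the 9 lay wholly lower in control iOLs and 1 wholly higher, against 37.6% and 34.3% of all genes, and in the cKO 5 and 0, against 34.7% and 34.3%. The median log2 fold change of the 9 genes was −0.18 in controls and −0.31 in the cKO, beside −0.06 and −0.00 over all genes. The iOL libraries were all of postnatal day 6, so the day 6 OPC libraries give the comparison within a day.

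Among the 9 genes Cbx7 had the largest estimate in controls. Its 15.3 and 15.002 CPM in control OPCs compare with 4.77 and 6.11 CPM in control iOLs, a fold of 0.36 (log2 −1.48 ± 0.22, 95% interval −1.98 to −0.98, edgeR adjusted p = 0.000649). In Eed cKO cultures the 24.1, 22.5 and 16.5 CPM of OPCs compare with 10.6 and 9.68 CPM in iOLs, a fold of 0.484 (−1.05 ± 0.20, adjusted p = 0.00264). No OPC library overlapped the iOL libraries of its genotype. Both calls held without each library and under each other setting, with adjusted p at most 0.00998 and 0.0359. Within day 6 the log2 differences were −1.46 in controls and −0.69 in the cKO. The order of group means was Eed cKO OPCs, control OPCs, Eed cKO iOLs and control iOLs, with no overlap between neighbours and 3.86-fold between the ends.

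Cbx8 fell in the cKO cultures, from 35.4, 34.3 and 19.9 CPM to 14.9 and 13.1 CPM (log2 −1.09 ± 0.29, edgeR adjusted p = 0.0138). The call ended without iOL Eed cKO replicate 1 (0.0644) or replicate 2 (0.105), and within day 6 the difference was −0.51, and with postnatal day as a term −0.53, still called. In controls its difference of −0.56 ± 0.31 (adjusted p = 0.166) became −0.89 and passed without OPC control replicate 2 (0.0419), and was −0.14 without OPC control replicate 1 and −0.12 with postnatal day as a term. Its levels in control OPCs, 21.0 CPM on day 7 and 12.5 CPM on day 6, lie further apart than those of either iOL group.

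Cbx2 followed another course. It was at 9.78 and 12.6 CPM in control OPCs and at 13.2 and 10.8 CPM in control iOLs, and its log2 fold change was 0.10 (95% interval −0.40 to 0.60) in controls and 0.13 (−0.31 to 0.57) in the cKO. Its 2 highest group means were those of the Eed cKO at either stage, which overlapped each other and lay above both control groups. The sign of the difference in controls turned without OPC control replicate 1 (−0.07) and without iOL control replicate 1 (−0.05), and that in the cKO without iOL Eed cKO replicate 1 (−0.13).

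Of the PCGF genes, Pcgf2 fell in controls from 70.3 and 48.4 CPM to 34.8 and 33.5 CPM (log2 −0.80 ± 0.24, edgeR adjusted p = 0.0219). The call ended without OPC control replicate 1 (−0.50, 0.133) and without either iOL control replicate (0.0866 and 0.102). In the cKO its difference was −0.46 ± 0.22 (adjusted p = 0.124), which passed without OPC Eed cKO replicate 3 (−0.61, 0.0376), and within day 6 it was −0.09. Bmi1 stood at the same level in control OPCs (57.1 and 58.7 CPM) and control iOLs (58.4 and 57.4 CPM), with a 95% interval of the log2 difference of −0.31 to 0.31. In the cKO it was lower in iOLs (log2 −0.31 ± 0.13, adjusted p = 0.0780) without passing, and passed without OPC Eed cKO replicate 3 (−0.42, 0.00633). Within day 6 that difference was −0.06.

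Ring1 fell in controls from 47.0 and 38.3 CPM to 29.1 and 28.9 CPM (log2 −0.56 ± 0.13, edgeR adjusted p = 0.00828, −0.40 within day 6). The call ended with only the groups compared (0.0561) and without either iOL control replicate (0.0561 and 0.0582). In the cKO, where OPCs already were at 34.3 to 35.8 CPM, the difference was −0.09 ± 0.12 (adjusted p = 0.592). Rnf2 had log2 differences of 0.17 (95% interval −0.13 to 0.47) in controls and −0.04 (−0.31 to 0.23) in the cKO. Phc1 fell in the cKO (−0.39 ± 0.10, adjusted p = 0.0105), and lost its call without iOL Eed cKO replicate 2 (0.110). In controls Phc1 had −0.18 (−0.42 to 0.05). Phc2 had 0.17 (−0.13 to 0.48) and 0.06 (−0.21 to 0.34), and its groups overlapped in both.

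The balance of paralogs that compete for 1 place in the complex was followed as the ratio of their counts within a library, which needs no scaling between libraries. A ratio also carries the unequal lengths of both transcripts, so only its change between groups is read. The Cbx2 to Cbx7 ratio was 0.640 and 0.839 in control OPCs and 0.932, 0.804 and 1.13 in Eed cKO OPCs. It was 2.76 and 1.77 in control iOLs and 2.35 and 1.86 in Eed cKO iOLs, so every iOL library lay above every OPC library. Averaged over the genotypes, it was higher in iOLs by 1.37 on the log2 scale (exact two-sided permutation test of stage within genotype, p = 0.0167, the smallest the 60 arrangements allow, adjusted p = 0.0667 over 12 tests). The Phc1 to Phc2 ratio was 0.536 to 0.636 in iOLs and 0.664 to 0.883 in OPCs, lower by 0.41 on the log2 scale with the same exact p and adjusted p. All iOL libraries were of postnatal day 6 and some OPC libraries of day 7, and the part of day in these stage differences was not tested. In the day 6 OPC libraries, control and cKO, the Cbx2 to Cbx7 ratio was 0.839 and 1.13. The Phc1 to Phc2 ratio there was 0.883 and 0.704. The Bmi1 to Pcgf2 ratio was 0.812 and 1.21 in control OPCs, 1.57, 1.90 and 1.95 in Eed cKO OPCs, 1.68 and 1.71 in control iOLs and 1.77 and 2.24 in Eed cKO iOLs. It was higher in the cKO by 0.54 averaged over the stages (exact permutation test of genotype within stage, p = 0.0167, adjusted p = 0.0667). The Ring1 to Rnf2 ratio was highest in the control OPC libraries, at 1.08 and 0.788, and lay between 0.542 and 0.673 in the other 7. None of the 12 tests, on 6 pairs chosen with levels of these genes known, had an adjusted p under 0.05. Even at the smallest exact p, a ratio could pass only if enough of the other tests reached that p too. The lack of a pass therefore says little about the size of a change.

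**Figure D3:**
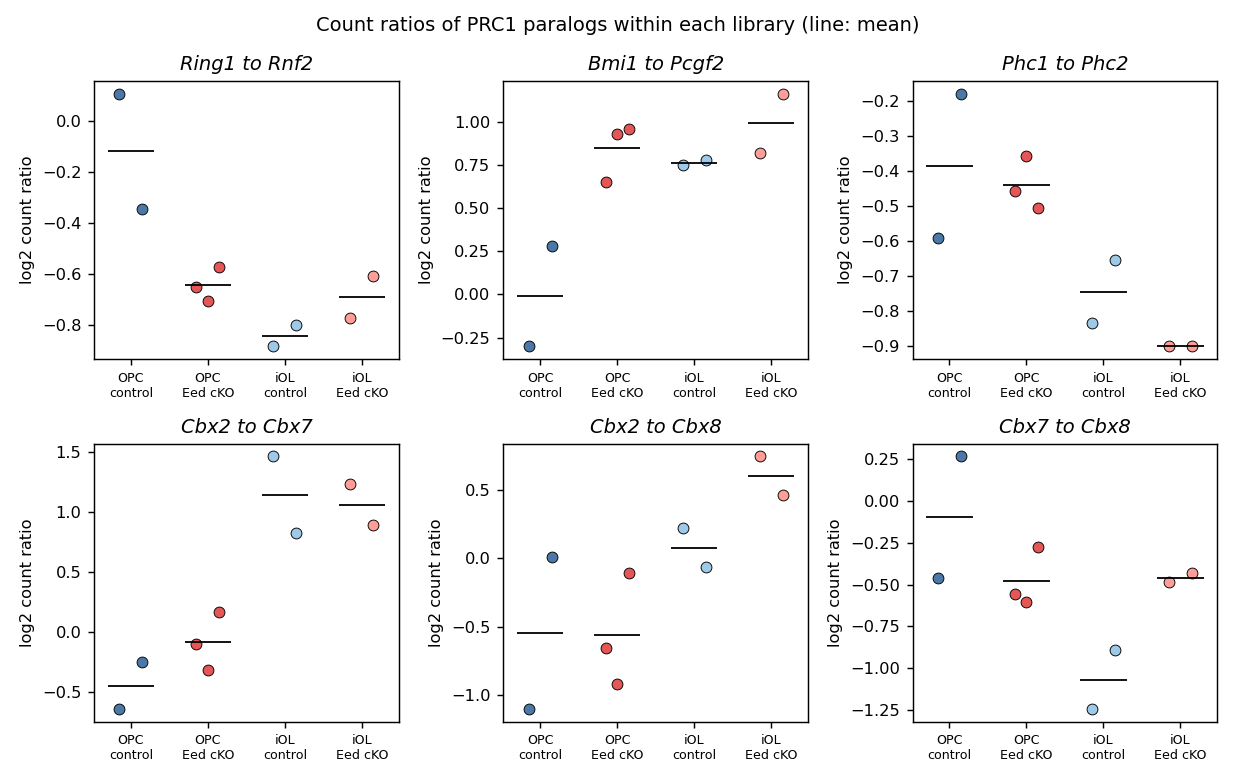
Log2 ratio of the counts of paralogous PRC1 genes (y axis) in each library (point) by group (x axis), with a line at the group mean. Before taking the log, the Cbx2 to Cbx7 ratio is 1.77 or more in the iOL libraries and at most 1.13 in the OPC libraries.

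The other genes of the system were taken from fixed lists. Of 6 further canonical PRC1 genes none passed in Eed cKO OPCs (edgeR). An unadjusted p under 0.05 was found for 3 of the 6, beside 3477 of all 13549 genes. Scml4, a Polycomb-related SAM domain gene, was the only one of the 6 called in Eed cKO iOLs, where 10.6% of all genes were called, and rose from 1.76 and 1.55 CPM to 4.42 and 7.46 CPM (log2 1.84 ± 0.33, adjusted p = 0.00878). Its call ended without iOL control replicate 1 (0.0699) or replicate 2 (0.0755) and without iOL Eed cKO replicate 2 (0.0702). The list's median log2 fold change was 0.40 in OPCs and 0.29 in iOLs, beside −0.02 and −0.00 over all genes. Over differentiation 2 of the 6 passed in controls and 2 in the cKO, beside 46.3% and 40.3% of all genes called. In controls Phc3, the third Polyhomeotic gene, rose (log2 0.83 ± 0.17, adjusted p = 0.00315) and Scml2 fell (−1.76 ± 0.21, 0.00017). Scml2 fell in the cKO as well (−1.77 ± 0.19, adjusted p = 0.000117). The calls of Phc3 and Scml2 held in every other setting.

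Variant PRC1 complexes carry RYBP or YAF2 in place of a CBX reader and do not need the PRC2 mark. Of 24 such genes 2 rose in Eed cKO OPCs, none fell and 22 did not pass, with a median of 0.03, beside 2.94% of all genes called higher, 0.303% lower and a median of −0.02. They were Auts2 (log2 0.87 ± 0.16, edgeR adjusted p = 0.0224), a subunit of PCGF3 and PCGF5 complexes, and Bcor (0.99 ± 0.22, 0.0455), a subunit of PCGF1 complexes. In iOLs Auts2 (0.90 ± 0.18, 0.0137) and Fbrsl1 (0.63 ± 0.16, 0.0359) rose, Yaf2 (−0.56 ± 0.13, 0.0251) and Pcgf3 (−0.50 ± 0.12, 0.0326) fell and 20 did not pass, with a median of −0.07, beside 7.08% of all genes called higher, 3.51% lower and a median of −0.00. Auts2 was at 38.7 and 38.1 CPM in control OPCs, compared with 79.6, 77.01 and 54.4 CPM in the cKO, and at 18.3 and 17.8 CPM in control iOLs, compared with 33.6 and 34.1 CPM in the cKO. The cKO libraries were above the controls at both stages. Within postnatal day the OPC differences were 1.01 (day 7) and 0.51 (day 6) for Auts2 and 1.39 and 0.77 for Bcor. Both OPC calls ended with only the groups compared (0.102 and 0.146), without OPC control replicate 1, without OPC Eed cKO replicate 1 or 2 and without iOL Eed cKO replicate 1 or 2 (0.0517 to 0.137). Without OPC control replicate 1 the value of Bcor was 0.64. Its call also ended without iOL control replicate 1 (0.0720) or 2 (0.0712). Each of the 4 iOL calls ended without any 1 of the iOL libraries (0.0785 to 0.217). Those of Fbrsl1 and Pcgf3 also ended without OPC Eed cKO replicate 1 or 2 (0.0553 to 0.0610).

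In control differentiation 7 of the 24 variant genes rose, 3 fell and 14 did not pass, beside 21.0% of all genes called higher and 25.3% lower. They were led by Pcgf3 (log2 1.33 ± 0.13, edgeR adjusted p = 5.04e-05), Bcor (2.26 ± 0.24, 9.62e-05) and Auts2 (−1.09 ± 0.18, 0.00118). Next came Mga (0.80 ± 0.19, adjusted p = 0.00754), a DNA-binding subunit of PCGF6 complexes, and Fbrsl1 (−0.62 ± 0.16, 0.0112). In the cKO cultures 3 of 24 were called higher and 1 lower, beside 18.5% and 21.8% of all genes, namely Auts2 (−1.06 ± 0.17, 0.000963), Pcgf3 (0.65 ± 0.11, 0.00168), Bcor (1.01 ± 0.21, 0.00431) and Bcorl1 (0.67 ± 0.18, 0.0139). The calls of Pcgf3, Bcor, Auts2 and Mga held in all other settings. That of Fbrsl1 ended with only the groups compared (0.0732) and without iOL control replicate 1 (0.0675) or 2 (0.0598). That of Bcorl1 ended with postnatal day as a term (0.0512) and without iOL Eed cKO replicate 1 (0.0592) or 2 (0.0944).

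Of 11 genes of the enzymes that remove ubiquitin from histone H2A and their partners none passed in Eed cKO OPCs or iOLs (edgeR). At an unadjusted p under 0.05 were 5 of the 11 in OPCs, beside 3477 of all 13549 genes. In iOLs there were 0, beside 3142 of all genes. Within postnatal day the OPC log2 differences of the 11 genes ran from −0.32 (Usp21) to 1.09 (Asxl2) on day 7. On day 6 they ran from −0.17 (Asxl3) to 0.14 (Usp22), and each day had a single control OPC library. In control differentiation, where 46.3% of all genes were called, 4 of the 11 passed. Mysm1 (log2 0.66 ± 0.18, adjusted p = 0.0151), Asxl2 (0.70 ± 0.22, 0.0265) and Usp22 (0.40 ± 0.14, 0.0391) rose and Usp21 (−0.41 ± 0.13, 0.0299) fell. In the cKO, where 40.3% of all genes were called, 1 of the 11 passed, Asxl3, which fell (−0.81 ± 0.25, 0.0284). Each of these 4 control calls ended without OPC control replicate 1 (0.0598 to 0.105) and without iOL control replicate 1 or 2 (0.0638 to 0.177). Those of Asxl2, Usp21 and Usp22 ended with only the groups compared (0.0888 to 0.106), and that of Usp22 also without OPC Eed cKO replicate 1 or 2 and iOL Eed cKO replicate 1 or 2 (0.0569 to 0.0670). The call of Asxl3 ended with postnatal day as a term (0.130) and without OPC Eed cKO replicate 1 or 2 or iOL Eed cKO replicate 1 or 2 (0.0814 to 0.172).

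Of 12 PRC2 genes none passed in OPCs (edgeR). At an unadjusted p under 0.05 were 3 of the 12, beside 3477 of all 13549 genes, which is near the background. In Eed cKO iOLs, where 10.6% of all genes were called, 2 of the 12 passed. Epop (log2 1.41 ± 0.28, adjusted p = 0.0132) and Phf19 (0.60 ± 0.15, 0.0330), both accessory subunits, rose. The call of Epop ended without iOL control replicate 1 (0.0925) or 2 (0.0947) and without iOL Eed cKO replicate 1 (0.0965). That of Phf19 ended without OPC Eed cKO replicate 1 or 2 and without any 1 of the iOL libraries (0.0574 to 0.267). Over differentiation 4 of the 12 were called in controls and 4 in the cKO, beside 46.3% and 40.3% of all genes. In controls Epop fell (−2.002 ± 0.28, 0.00045) and Jarid2 rose (0.96 ± 0.16, 0.000979), as they did in the cKO (−1.22 ± 0.25, 0.00395, and 0.42 ± 0.14, 0.0401). Phf1 fell in both (−0.56 ± 0.14, 0.0115, and −0.54 ± 0.13, 0.0101), Phf19 in controls (−0.61 ± 0.15, 0.00909) and Mtf2 in the cKO (−0.62 ± 0.21, 0.0406). Both control calls of Epop and Jarid2 held in all other settings. The control call of Phf1 ended with only the groups compared (0.0550) and without iOL control replicate 1 (0.0761) or 2 (0.0651), and that of Phf19 without iOL control replicate 2 (0.0770). In the cKO the call of Epop ended without iOL Eed cKO replicate 2 (0.0501) and that of Phf1 without iOL Eed cKO replicate 1 (0.0919) or 2 (0.0554). The cKO call of Jarid2 ended without OPC Eed cKO replicate 2 or 3 and without any 1 of the iOL libraries (0.0606 to 0.253). That of Mtf2 ended with only the groups compared (0.0571), with postnatal day as a term (−0.28, 0.214), and without OPC Eed cKO replicate 1 or 2 or any 1 of the iOL libraries (0.0627 to 0.262).

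**Figure D4:**
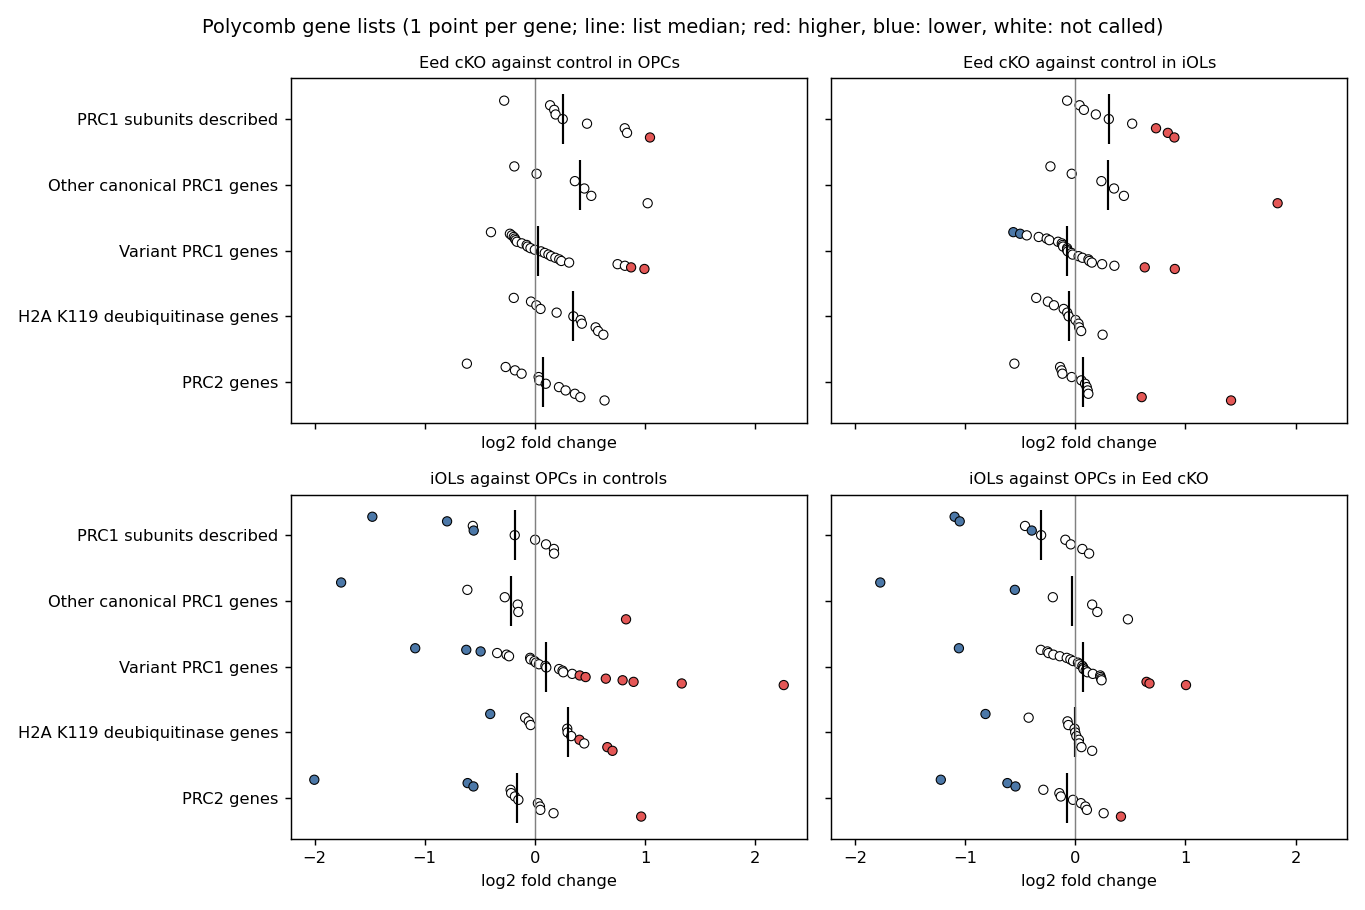
Log2 fold change (x axis) of every measured gene (point) of the 9 PRC1 subunits and of 4 lists of related genes (y axis) in 4 comparisons, with a line at each list's median and red, blue and white for genes called higher, lower and not called. The PRC1 subunits have medians of 0.25 and 0.31 in the knockout comparisons, and the variant PRC1 genes 0.03 and −0.07.

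For each member called in at least 1 comparison, the genes with the most similar course over the 9 libraries were found by Pearson r of log2 CPM, as a description of libraries that share their stage, genotype and depth. Bmi1 was closest to Zdbf2 (r = 0.997), Tbx18 (0.987) and Vax2os (0.986). Close to Cbx8 were Cnksr2 (0.980) and 4930447C04Rik (0.9748). Close to Cbx2 were Msx1 (0.946) and Irs4 (0.939). Cbx7 was closest to Smarca2 (0.992) and Map3k9 (0.991). Pcgf2 was closest to Tmem196 (0.974), Upk1a (0.973) and Esco2 (0.968). Ring1 was closest to Ift27 (0.986), Frat1 (0.978) and Ociad2 (0.97497), and Phc1 to Pcdh9 (0.984), Slc16a14 (0.980) and Pip4k2b (0.980). Rnf2 and Phc2 were called in no comparison.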

How the data were processed

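RNA was sequenced from 9 libraries. The deposited table holds counts, whole numbers of reads per gene symbol. Per the submitters' processing notes, the authors used cutadapt 1.14, STAR 2.6.0, featureCounts of Subread 1.6.2 and mm10. Strand setting and annotation are not given in the sources used here. The labels' protocols name a strand-specific polyA preparation for inputs over 100 ng and an amplifying one for smaller inputs, without saying which library had which. Every gene in the table had at least 1 count in each library and 10 or more in at least 4, and 1 repeated header line was skipped. Gene symbols matched the RefSeq gene table of GRCm38.p6 in 97.9% of cases. The chromatin immunoprecipitation samples were not analysed here.

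All 9 libraries were fitted together with edgeR 4.0.16 and limma 3.58.1 under R 4.3.3, using 4 group means, TMM factors, a filter at a minimum count of 10 that removed 0 genes, and the quasi-likelihood test. The Benjamini-Hochberg adjustment ran over all 13549 genes, with calls under 0.05, and 5 residual degrees of freedom. Standard errors were derived from the fold change and the F statistic, and 95% intervals use the test's degrees of freedom. Within-day values are differences of log2 CPM with a prior count of 2. The test was tried on simulated data first. Alternatives were DESeq2 1.42.0, a block on replicate number, a term for postnatal day, a fit of the compared groups alone, RLE factors, filtering at 1 CPM in 4 libraries or not at all, and leaving out each library. Named were the 9 members, Eed, Cdkn2a, up to 5 called genes of each list and the 3 genes most like each called member. Commd3 and Apobec3 were named after their values were seen. Some genes that this rule names are not reported here. The members, lists and ratio pairs were chosen with earlier results of these data known.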

Additional observations from a re-analysis of the deposited data

How the results depend on the processing

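Of the 711 values of the 9 genes under other settings (5 comparisons), 647 kept their direction and their side of the threshold, 24 lost a call, 20 gained one and 20 changed sign. In a group of 2, leaving out 1 library leaves a lone sample, which is assumed to vary like the other groups, so that a call lost there comes with fewer samples. For calls of the 9 genes the ranges over the libraries left out were 1 to 4 higher and 0 to 1 lower for Eed cKO OPCs and 0 to 3 higher for Eed cKO iOLs. They were 1 to 4 lower for control differentiation, 1 to 5 lower for cKO differentiation, and 0 to 1 higher for the difference of the cKO effects. Over all genes they were 161 to 1862 higher and 3 to 2073 lower for Eed cKO OPCs, 243 to 1408 and 81 to 831 for Eed cKO iOLs, 1784 to 3221 and 2256 to 4015 for control differentiation, 1280 to 3302 and 1800 to 3583 for cKO differentiation, and 0 to 1118 and 2 to 1038 for the difference. The highest counts in Eed cKO OPCs came without OPC control replicate 2, and the lowest without OPC Eed cKO replicate 1 or 2.

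In Eed cKO OPCs 1 of the 9 genes was called higher and, over all genes, 399 higher and 41 lower. With postnatal day as a term these were 3, 848 and 534, with DESeq2 3, 767 and 239, and with only the groups compared 184 higher and 6 lower over all genes. In Eed cKO iOLs 959 and 475 genes became 2147 and 1552 with only the groups compared and 1770 and 910 with postnatal day as a term. In control differentiation 2846 higher became 1862 with only the groups compared. For the difference of the cKO effects 128 and 120 became 676 and 526 with postnatal day as a term and 364 and 459 with DESeq2. The share of higher calls in Eed cKO OPCs was 90.7%, against 61.4% with postnatal day as a term, 76.2% with DESeq2 and 63.0% with the replicate block. The causes were not tested.

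The replicate numbers of the labels are not said to mark a shared animal, batch or day. In OPCs the deviations of same-numbered control and cKO libraries had correlations of 0.31 and −0.35. Control and cKO OPC libraries of the same postnatal day had 0.31, 0.35 and 0.43. These OPC values are not separate evidence, since the deviations within a group cancel out. The −0.35 and the 0.35 are the same value with opposite signs. With no statement in the labels and same-numbered values of opposite sign, the numbers were not taken to pair the samples. In iOLs same-numbered libraries had 0.24 and the others −0.24. Libraries in a group of 2 deviate by equal and opposite amounts, so the iOL values repeat a single value and cannot decide on pairing. With the replicate block 4 of the 9 genes were called higher in Eed cKO OPCs (Bmi1, Cbx2, Cbx7 and Cbx8), with 1223 higher and 718 lower over all genes. In cKO differentiation 5 of the 9 were called lower, and in Eed cKO iOLs the call of Fbrsl1 ended (0.0613). For the difference of the cKO effects the block gave 479 and 570 genes, and a value of −0.0028 for Cbx2.

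Signs changed only for values that were not called. With postnatal day as a term Ring1 was at 0.016 in cKO differentiation, and with the replicate block the sign changed for Cbx2 as given above. The remaining sign changes came with a library left out, over which the log2 values ran as follows. In Eed cKO OPCs Pcgf2 ran from −0.071 (without OPC control replicate 2) to 0.468 (without replicate 1). In Eed cKO iOLs Rnf2 ran from −0.081 to 0.151 and Phc2 from −0.0227 to 0.188. In control differentiation Bmi1 ran from −0.0191 to 0.0217 and Cbx2 from −0.0684 to 0.294, and in cKO differentiation Rnf2 from −0.161 to 0.0708 and Cbx2 from −0.131 to 0.345. For the difference of the cKO effects Cbx2 ran from −0.232 to 0.244 and Phc2 from −0.258 to 0.0271. The lowest count of any of the 9 genes was 84 (Cbx7 in a control iOL library).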

Other observations

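The genes beside the 9 members were looked up as a description of position, and those named here were chosen after their values were seen. The nearest tested neighbours of Rnf2, Bmi1, Pcgf2, Phc1 and Phc2 had no call in either knockout comparison (edgeR). Over all genes 3.25% were called in OPCs and 10.6% in iOLs. Among these neighbours were Cisd3, 195 bases from Pcgf2 (log2 −0.34 in OPCs and −0.61 in iOLs), and M6pr, 50 bases from Phc1 (−0.13 and −0.15). The nearest of Ring1, Slc39a7 at 3585 bases, had no call either (−0.02 and −0.20). On the other side of Ring1 on chromosome 17 lies the class I histocompatibility gene H2-K1, 20172 bases away. H2-K1 was higher in Eed cKO OPCs (log2 0.85, edgeR adjusted p = 0.032) and iOLs (0.97, adjusted p = 0.0129). In control iOLs it was lower than in control OPCs (−1.05, adjusted p = 0.00187). Beside Cbx7 on chromosome 15 lies Pdgfb, which encodes a chain of platelet-derived growth factor, 24721 bases away. It was higher in Eed cKO iOLs (1.78, adjusted p = 0.0279) and in control iOLs against control OPCs (1.89, adjusted p = 0.0176), where Cbx7 fell.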
